A study of Mus musculus with 8 samples.

Results

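The 39 genes described here encode proteins that cells make in order to replicate their DNA and divide. They were taken from the deposited tables by symbol, from a fixed list of names, and each matched 1 row among 54139 genes. The list was split by role into 13 S phase genes, 23 mitotic genes and 3 transcription factors of the cell cycle. All 39 passed the filter on low counts, which kept 14701 genes for testing.

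The samples were RNA sequencing libraries of intestinal epithelial cells from mice, in 2 groups of 4. The cKO group carried a floxed Rictor allele together with Villin-Cre, and the WT group is labelled with Villin-Cre alone, so that both groups carried the Cre driver. Villin-Cre makes Cre recombinase in the intestinal epithelium, and cells of other kinds in a preparation keep a floxed gene. The Rictor protein belongs to mTOR complex 2, one of the kinase complexes built on mTOR, and is required for that complex to phosphorylate Akt. For the age and sex of the mice, the segment of the intestine, the cell isolation and the floxed exons, nothing was found in the sources used here. Since no label states that the libraries came from separate mice, the p-values speak only of the spread between libraries, which may be technical in part.

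In the intestine, cell division takes place in the crypts. Stem cells at the crypt base and the transit-amplifying cells above them divide, and their descendants leave the cycle as they move onto the villus and become enterocytes. Genes of DNA replication are switched on late in G1 by E2F factors, once cyclin-dependent kinases have inactivated the retinoblastoma protein. Genes of mitosis are switched on later, by the MuvB complex with B-MYB (the product of Mybl2) and FOXM1, which reaches its targets through a short promoter element called CHR. In bulk RNA, fewer dividing cells and less RNA of these genes in each dividing cell cannot be told apart.

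Total counts ran from 15110451 to 18351748 in the cKO libraries and from 15982538 to 18708335 in the WT libraries. Between 21346 and 21727 genes had a count in each library, and mitochondrial genes took 5.28% to 7.71% of counts. All 6 epithelial markers examined were detected, with Epcam at 1498 to 1640 CPM (counts scaled to a common library total) in cKO and 1576 to 1734 CPM in WT. Rictor itself was at 30.4, 39.6, 20.8 and 40.6 CPM in cKO libraries 1 to 4, and at 41.7, 42.4, 57.3 and 51.4 CPM in WT libraries 1 to 4. Every cKO library was below every WT library, and the log2 fold change of -0.55 ± 0.20 (SE) missed the threshold (quasi-likelihood test of edgeR, Benjamini-Hochberg adjusted p = 0.921). It was -0.29 without the libraries numbered 3 of both groups. Counts are given for the whole gene, and which exons of Rictor were floxed was not found. Rictor has a transcript GC content of 42.5%. In cKO library 3 it stood at 0.564 of the mean of cKO libraries 1, 2 and 4. Here and below CPM values use library totals scaled by TMM factors. In 3 libraries the members stood apart from the rest of their group, namely WT library 3 and cKO library 1, in which most members were low, and cKO library 3, in which members with GC-poor transcripts were low. Values without 1 or more of these libraries are given beside the members described in full. Those without cKO library 1 alone are given for Aurkb and, further on, over all members.

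Levels of different genes were compared as FPKM, which divides by gene length. The order of the genes therefore depends on the length listed for each. Among the S phase genes Pcna, the sliding clamp that holds DNA polymerase on its template, was highest of all 39 members, with a mean of 64.5 FPKM over the 8 libraries. Of the subunits of the MCM2 to MCM7 helicase, which unwinds DNA at the replication fork, Mcm6 was highest at 37.7 FPKM and Mcm2 lowest at 13.7 FPKM. Mcm2 was not the lowest in CPM. Listed at 6956 bases, it averaged 105 CPM in cKO and 87.5 CPM in WT. Mcm3 (3752 bases) averaged 89.3 and 73.4 CPM, and Mcm4 (3589 bases) 77.8 and 76.0 CPM. Enzymes of nucleotide supply lay between 10.4 and 20.8 FPKM. The small subunit of ribonucleotide reductase, Rrm2, was at 20.8 FPKM and the large subunit, Rrm1, at 14.1 FPKM. Thymidine kinase Tk1 was at 15.2 FPKM and thymidylate synthase Tyms at 10.4 FPKM. In CPM the order of Rrm1 and Rrm2 was the reverse. Rrm1, listed at 11012 bases, averaged 157 CPM in cKO and in WT, and Rrm2, listed at 2771 bases, 61.5 and 55.4 CPM. The E-type cyclins, which drive entry into S phase, were the lowest of the S phase genes, with Ccne1 at 4.65 FPKM and Ccne2 at 3.95 FPKM.

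Among the mitotic genes, Ccnb2 (55.8 FPKM) and Ube2c (55.2 FPKM) were highest. Ccnb2 encodes a B-type cyclin that activates Cdk1, and Ube2c the ubiquitin-conjugating enzyme of the anaphase-promoting complex. Cdc20, an activator of that complex, was at 48.9 FPKM, Top2a, the topoisomerase that untangles sister chromatids, at 47.9 FPKM, and Mki67, the proliferation antigen Ki-67, at 44.7 FPKM. The kinase genes Plk1, Aurkb, Aurka, Bub1b, Cdk1 and Bub1 were spread from 40.8 FPKM for Plk1 to 8.10 FPKM for Bub1. Plk1 and Aurka act in mitotic entry and spindle assembly, and Bub1b and Bub1 in the spindle checkpoint. Cyclins Ccna2 and Ccnb1 lay at 33.5 and 19.3 FPKM, and Birc5 (survivin, a subunit of the chromosomal passenger complex with Aurkb) at 21.9 FPKM. Of the centromere proteins, Cenpa, the histone H3 variant of centromeres, was at 15.4 FPKM, the kinetochore motor Cenpe at 8.89 FPKM and the kinetochore protein Cenpf at 5.15 FPKM. The spindle and midzone genes Nusap1, Tpx2, Kif20a, Kif23 and Prc1 ranged from 18.8 FPKM for Nusap1 to 6.84 FPKM for Prc1. Tpx2 activates Aurka at the spindle, and Prc1 bundles the microtubules of the midzone. Kif11, the motor that pushes the spindle poles apart, was lowest of all members at 1.80 FPKM. The transcription factors were at 11.7 FPKM (Foxm1), 6.14 FPKM (Mybl2) and 5.27 FPKM (E2f1). For every neighbouring pair in this order of 39 the ranges over the 8 libraries overlapped. Levels varied by 8.49% (Cdk1) to 24.5% (Nusap1) of their mean over the 8 libraries, except for Kif11 at 55.2%.

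Promoter letters were counted in each role group, the groups having been defined by function. RefSeq promoters of build GRCm38.p6, taken from 250 bases before to 50 bases after the start of a gene, were found for 32 of the 39 members, namely 11 S phase genes, 19 mitotic genes and 2 transcription factors. Both strands were searched for E2F-like letters (TTCCCGC or the variants TTGGCGC and TTCGCGC, as well as TTGCCGC), for CHR letters (TTTGAA or TTTAAA) and for the CCAAT box, to which the factor NF-Y binds. E2F-like letters stood in 6 of 11 S phase promoters and 3 of 19 mitotic promoters, against 9.70% of all 27025 promoters. CHR letters stood in 17 of 19 mitotic and 5 of 11 S phase promoters, against 27.9% of all promoters. A CCAAT box stood in 17 of 19 mitotic and 8 of 11 S phase promoters, against 37.8% of all promoters. CHR and CCAAT letters together stood in 16 of 19 mitotic promoters, in 3 of 11 S phase promoters and in 10.8% of all promoters. In 1 member, Ccnb1, an E2F-like match overlapped a CCAAT match. The windows of E2f1 and Mybl2 held none of these letters, and other forms of these sites were not searched. Where a gene had more than 1 promoter, the first by coordinate was used, which on the minus strand is the one furthest downstream. The E2f1 window, chr2:154569377-154569676 on the minus strand, lies inside the gene as listed (154559407 to 154569892). So does the Mcm7 window, chr5:138171217-138171516 on the minus strand (gene listed at 138164583 to 138172422), which holds E2F-like letters. These windows therefore do not cover the bases before the listed starts of E2f1 and Mcm7. A match to any of these letters is a description and not evidence of binding.

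The promoters of 2 helicase subunits and 3 mitotic genes were chosen to show the contrast. They are given 5′ to 3′ on the strand of the gene, with matches in capitals on either strand. In Mcm3 and Mcm6 the capitals are E2F-like letters and CCAAT boxes, with ATTGG as a CCAAT box on the other strand, and neither holds CHR letters. In Ccnb2, Cdc20 and Kif11 the capitals are CHR letters and CCAAT boxes, and none of these 3 holds E2F-like letters. Other members do not follow the contrast. Mcm2 holds CHR but no E2F-like letters, Mcm5 holds both, and so do the mitotic genes Cdk1, Ccnb1 and Mki67.
Mcm3 promoter, chr1:20820263-20820562, minus strand: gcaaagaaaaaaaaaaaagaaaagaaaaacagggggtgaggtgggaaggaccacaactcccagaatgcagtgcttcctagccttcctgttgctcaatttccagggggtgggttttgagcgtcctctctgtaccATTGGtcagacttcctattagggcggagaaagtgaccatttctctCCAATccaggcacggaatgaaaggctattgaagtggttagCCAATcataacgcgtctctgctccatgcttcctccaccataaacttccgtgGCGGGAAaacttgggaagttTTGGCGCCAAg
Mcm6 promoter, chr1:128359656-128359955, minus strand: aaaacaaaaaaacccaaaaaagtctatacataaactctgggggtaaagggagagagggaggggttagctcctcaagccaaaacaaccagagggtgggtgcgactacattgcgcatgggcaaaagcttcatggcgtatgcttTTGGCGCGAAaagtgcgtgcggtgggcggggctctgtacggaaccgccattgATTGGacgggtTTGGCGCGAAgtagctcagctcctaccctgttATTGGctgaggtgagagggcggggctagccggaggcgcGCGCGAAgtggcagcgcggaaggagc
Ccnb2 promoter, chr9:70421505-70421804, minus strand: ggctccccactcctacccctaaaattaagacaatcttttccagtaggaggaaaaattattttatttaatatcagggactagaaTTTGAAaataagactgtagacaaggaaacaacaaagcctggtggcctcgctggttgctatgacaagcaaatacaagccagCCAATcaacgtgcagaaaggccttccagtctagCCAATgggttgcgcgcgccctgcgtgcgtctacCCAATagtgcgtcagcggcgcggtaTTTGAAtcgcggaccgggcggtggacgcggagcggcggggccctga
Cdc20 promoter, chr4:118437294-118437593, minus strand: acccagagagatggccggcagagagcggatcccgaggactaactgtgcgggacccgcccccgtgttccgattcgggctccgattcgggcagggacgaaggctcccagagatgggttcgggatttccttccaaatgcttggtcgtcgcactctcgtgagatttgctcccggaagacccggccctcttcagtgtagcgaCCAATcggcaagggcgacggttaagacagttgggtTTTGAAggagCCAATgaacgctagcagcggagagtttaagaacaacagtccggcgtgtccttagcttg
Kif11 promoter, chr19:37376132-37376431, plus strand: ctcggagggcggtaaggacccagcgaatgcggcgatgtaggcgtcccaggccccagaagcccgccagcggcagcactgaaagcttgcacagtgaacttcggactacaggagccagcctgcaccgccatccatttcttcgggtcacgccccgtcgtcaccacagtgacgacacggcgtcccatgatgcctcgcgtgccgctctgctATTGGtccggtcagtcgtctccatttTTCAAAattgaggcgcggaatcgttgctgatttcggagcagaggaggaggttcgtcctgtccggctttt

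Between cKO and WT none of the 39 members passed the threshold. With edgeR's quasi-likelihood test and Benjamini-Hochberg adjustment over all 14701 genes, 0 of 39 members and 2 of all genes (0.0136%) had an adjusted p under 0.05. At an unadjusted p under 0.05 there were 2 of 39 members, Kif11 and Mybl2, against 3.9% of all genes. For 0 of 39 members did the 4 cKO libraries lie wholly above or below the 4 WT libraries, against 3.21% of all genes. DESeq2 called 0.252% of genes and 0 members, and limma voom with sample quality weights called 0.0544% of genes and 1 member, Kif11. Those weights were lowest for cKO library 3, the cKO library in which Kif11 was lowest. The log2 fold changes of the 38 members other than Kif11 lay between -0.28 and 0.34, with SEs of 0.11 to 0.21. Their 95% intervals lay within 0.597-fold and 1.59-fold. Point estimates above 0 were found for 24 of 39 members, against 50.5% of all genes. The median log2 fold change was 0.15 over the S phase genes (10 of 13 above 0), -0.03 over the mitotic genes (11 of 23 above 0) and 0.21 over the 3 transcription factors (all above 0), against 0.0022 over all genes.

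**Figure D1:**
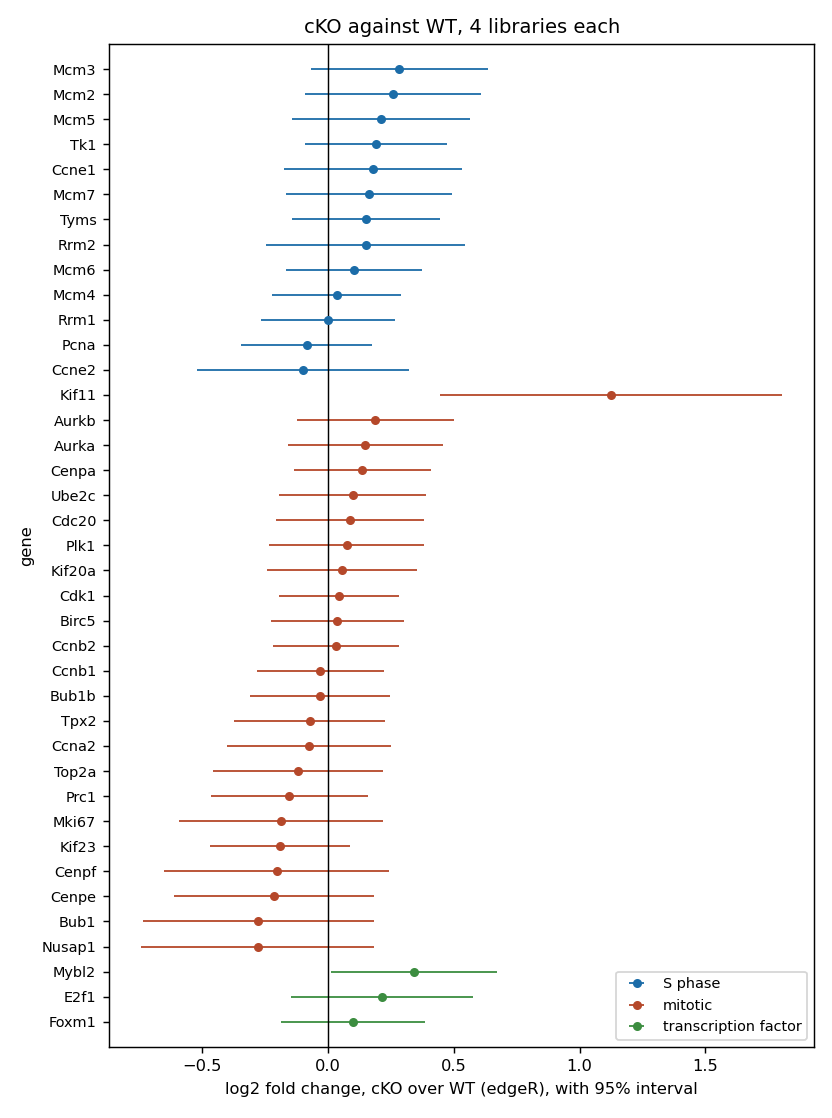
Log2 fold change of each of the 39 genes, cKO over WT, from edgeR with its 95% interval (4 libraries in each group), with S phase, mitotic and transcription factor genes in separate blocks. Every interval spans 0 except those of Kif11 (1.13) and Mybl2 (0.34), whose adjusted p-values were 0.891 and 0.921.

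The highest estimate among the S phase genes was that of Mcm3 (chromosome 1, 20802968 to 20820312, minus strand, GRCm38). Mcm3 had 67.8, 89.8, 112 and 87.2 CPM in cKO libraries 1 to 4, against 85.4, 74.6, 58.5 and 75.1 CPM in WT libraries 1 to 4. The highest value was in cKO library 3 and the lowest in WT library 3, and the groups overlapped because cKO library 1 lay below 3 WT libraries. Mcm3 averaged 89.3 ± 18.2 CPM in cKO and 73.4 ± 11.1 CPM in WT (SD, n = 4 each), a log2 fold change of 0.28 ± 0.16 (adjusted p = 0.921 in edgeR). Leaving out library 3 gave 0.15 for that of cKO, 0.19 for that of WT and 0.06 for both.

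Mcm2 (chromosome 6, 88883474 to 88898780, minus strand) had 80.3, 113, 123 and 102 CPM in cKO, against 103, 87.4, 66.8 and 92.2 CPM in WT. Here too cKO library 3 was highest and WT library 3 lowest, with cKO library 1 inside the WT range. Its log2 fold change was 0.26 ± 0.16, and that of Mcm5 (chromosome 8, 75109569 to 75128439, plus strand) was 0.21 ± 0.16, with an edgeR adjusted p of 0.921 for each. Mcm5 had 98.0, 131, 148 and 108 CPM in cKO, against 120, 107, 79.0 and 113 CPM in WT, the same 2 libraries marking the extremes. Without both libraries 3 the estimate was 0.06 for Mcm2 and -0.01 for Mcm5. The estimates of all 6 helicase subunits were above 0, from 0.03 for Mcm4 to 0.28 for Mcm3, with a median of 0.19. These subunits share the low WT library 3, and the estimates of Mcm4, Mcm5 and Mcm7 were below 0 without both libraries 3.

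Thymidine kinase Tk1 (chromosome 11, 117815526 to 117826092, minus strand) had 70.8, 87.6, 93.6 and 88.4 CPM in cKO, against 82.3, 79.8, 59.8 and 76.4 CPM in WT, a log2 fold change of 0.19 ± 0.13. Thymidylate synthase Tyms (chromosome 5, 30058202 to 30073617, minus strand) had 56.5, 72.9, 68.9 and 72.5 CPM in cKO, against 62.5, 64.2, 47.7 and 69.3 CPM in WT, a log2 fold change of 0.15 ± 0.13. In both genes WT library 3 was the lowest of the 8, cKO library 1 was the lowest cKO library, and the groups overlapped (adjusted p = 0.921 in edgeR for each). Without WT library 3 the estimates were 0.10 for Tk1 and 0.05 for Tyms, and without both libraries 3 they were 0.05 and 0.04. Ccne2 (chromosome 4, 11191351 to 11204779, plus strand) had the lowest estimate of the S phase genes, -0.10 ± 0.19 (adjusted p = 0.947 in edgeR). It had 13.7, 17.2, 8.71 and 14.3 CPM in cKO, against 13.3, 14.98, 16.1 and 13.5 CPM in WT, with cKO library 3 alone far below the others. Without cKO library 3 the Ccne2 estimate was 0.06. The 4 S phase genes outside these descriptions had estimates of 0.18 (Ccne1), 0.15 (Rrm2), -0.00034 (Rrm1) and -0.08 (Pcna).

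The 22 mitotic genes other than Kif11 had estimates between -0.28 and 0.19, of which 10 were above 0. Above 0 by the most were Aurkb (0.19), Aurka (0.15) and Cenpa (0.14), and near 0 were Cdk1 (0.04), Birc5 (0.04), Ccnb2 (0.03), Ccnb1 (-0.03) and Bub1b (-0.03). Nusap1 (chromosome 2, 119618298 to 119651244, plus strand), a microtubule-bundling protein of the spindle, had the lowest. It had 64.6, 71.1, 44.9 and 98.1 CPM in cKO, against 80.7, 79.9, 72.8 and 105 CPM in WT. Libraries 1, 2 and 3 of cKO were below every WT library, and cKO library 4 lay within the WT range. The log2 fold change was -0.28 ± 0.21 (adjusted p = 0.921 in edgeR), -0.12 without cKO library 3 and -0.49 without cKO library 4.

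Bub1 (chromosome 2, 127801122 to 127831865, minus strand), a kinase of the spindle checkpoint, had 30.7, 38.9, 19.4 and 39.9 CPM in cKO, against 34.9, 41.7, 33.7 and 45.98 CPM in WT. Libraries 2 and 4 of cKO lay within the WT range, and cKO libraries 1 and 3 were below every WT library. Its log2 fold change was -0.28 ± 0.21 (adjusted p = 0.921 in edgeR), and -0.10 without cKO library 3. Kif23 (chromosome 9, 61915905 to 61946774, minus strand), a kinesin of the spindle midzone, had 67.3, 88.2, 63.0 and 86.5 CPM in cKO, against 88.2, 85.0, 81.3 and 93.4 CPM in WT. Libraries 1 and 3 of cKO were below every WT library, and cKO libraries 2 and 4 lay within the WT range. The log2 fold change of Kif23 was -0.19 ± 0.13 (adjusted p = 0.921 in edgeR), and -0.11 without cKO library 3.

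Aurkb (chromosome 11, 69045647 to 69051664, plus strand), the kinase of the chromosomal passenger complex, had 54.0, 73.1, 73.9 and 70.5 CPM in cKO, against 64.8, 62.8, 46.2 and 64.5 CPM in WT. In each group 1 library lay below the other 3, cKO library 1 and WT library 3, and it was only through cKO library 1 that the groups overlapped. Aurkb averaged 67.9 ± 9.39 CPM in cKO and 59.6 ± 8.96 CPM in WT (SD, n = 4 each), a log2 fold change of 0.19 ± 0.14 (adjusted p = 0.921 in edgeR). Leaving out cKO library 1 gave 0.28, leaving out WT library 3 gave 0.08, and leaving out both libraries 3 gave 0.04. Mki67 (chromosome 7, 135689784 to 135716361, minus strand), singled out after its values were seen as the usual marker of proliferation, had 380, 499, 289 and 532 CPM in cKO, against 464, 486, 420 and 567 CPM in WT. For Mki67, cKO libraries 1 and 3 were below every WT library, and cKO libraries 2 and 4 lay within the WT range. Its log2 fold change was -0.19 ± 0.18 (adjusted p = 0.921 in edgeR), with a 95% interval of 0.662-fold to 1.16-fold. It was -0.04 without cKO library 3, -0.10 without WT library 4 and -0.31 without cKO library 4.

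Of the transcription factors, Mybl2 (chromosome 2, 163054687 to 163084688, plus strand) had 26.9, 31.5, 38.1 and 32.2 CPM in cKO, against 31.9, 23.8, 21.9 and 23.8 CPM in WT. The cKO libraries lay above WT libraries 2, 3 and 4, and WT library 1 lay among the cKO libraries. The log2 fold change was 0.34 ± 0.15 with an unadjusted p of 0.0432 (adjusted p = 0.921 in edgeR), and 0.19 without both libraries 3. E2f1 (chromosome 2, 154559407 to 154569892, minus strand) had 14.1, 18.3, 21.1 and 18.8 CPM in cKO, against 18.1, 15.03, 12.3 and 16.9 CPM in WT, a log2 fold change of 0.21 ± 0.16. Foxm1 (chromosome 6, 128362967 to 128376146, plus strand) had 58.0, 74.5, 77.6 and 71.5 CPM in cKO, against 72.6, 66.9, 53.1 and 70.7 CPM in WT, a log2 fold change of 0.10 ± 0.13. In all 3 factors cKO library 3 was the highest of the 8 and WT library 3 the lowest, and the groups overlapped (adjusted p = 0.921 in edgeR for E2f1 and 0.925 for Foxm1). Leaving out library 3, the E2f1 estimate was 0.13 for that of cKO, 0.12 for that of WT and 0.03 for both, and the Foxm1 estimate was -0.04 for both.

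**Figure D2:**
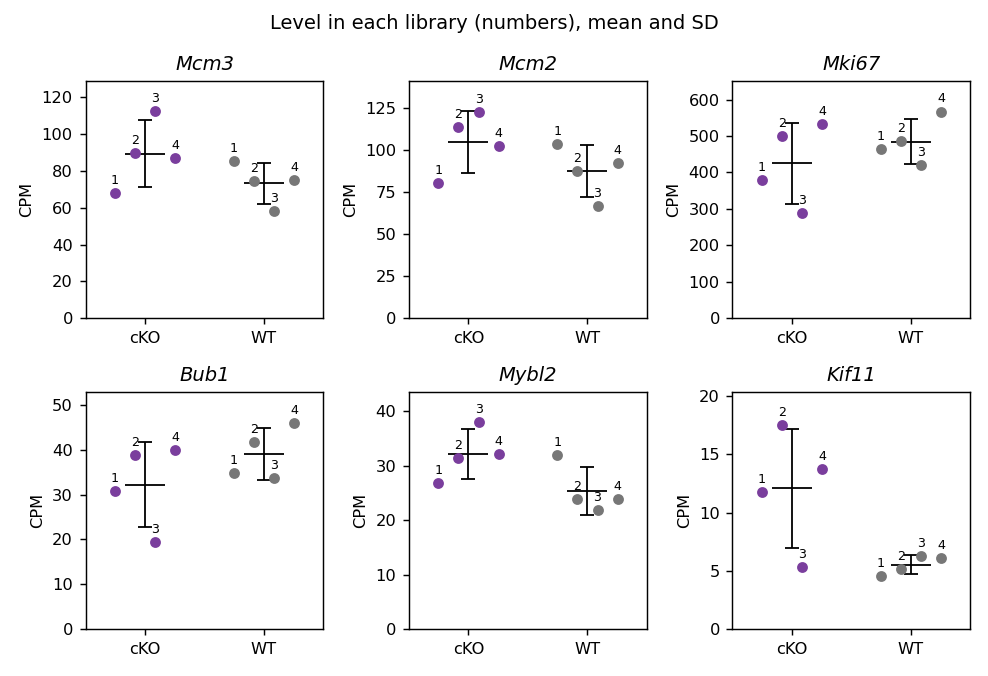
CPM of 6 genes in each library, cKO left and WT right, with the library number beside each point and the group mean and SD as a bar (n = 4 each, axes from 0). Mcm3, Mcm2 and Mybl2 are highest in cKO library 3, while Mki67 and Bub1 are lowest there, and Kif11 is above the WT range in cKO libraries 1, 2 and 4 but within it in cKO library 3.

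Levels of the members differed between libraries of the same group, and most members did so together. As a percent of each gene's mean over the 8 libraries, the median over the 39 members was 87.2%, 107%, 107% and 108% in cKO libraries 1 to 4, against 105%, 102%, 81.4% and 106% in WT libraries 1 to 4. WT library 3 was the lowest WT library for 36 of 39 members, while it was the lowest for 33.5% of all genes. The exceptions were Pcna, Ccne2 and Kif11. Among the cKO libraries, library 1 was the lowest for 24 of 39 members, against 24.0% of all genes, and library 3 for 14 members, against 34.7% of all genes. For the S phase genes the medians were 86.8%, 110%, 107% and 108% in cKO, against 104%, 99.9%, 77.4% and 99.8% in WT. For the mitotic genes they were 87.2%, 104%, 90.5% and 107% in cKO, against 104%, 104%, 82.2% and 112% in WT.

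**Figure D3:**
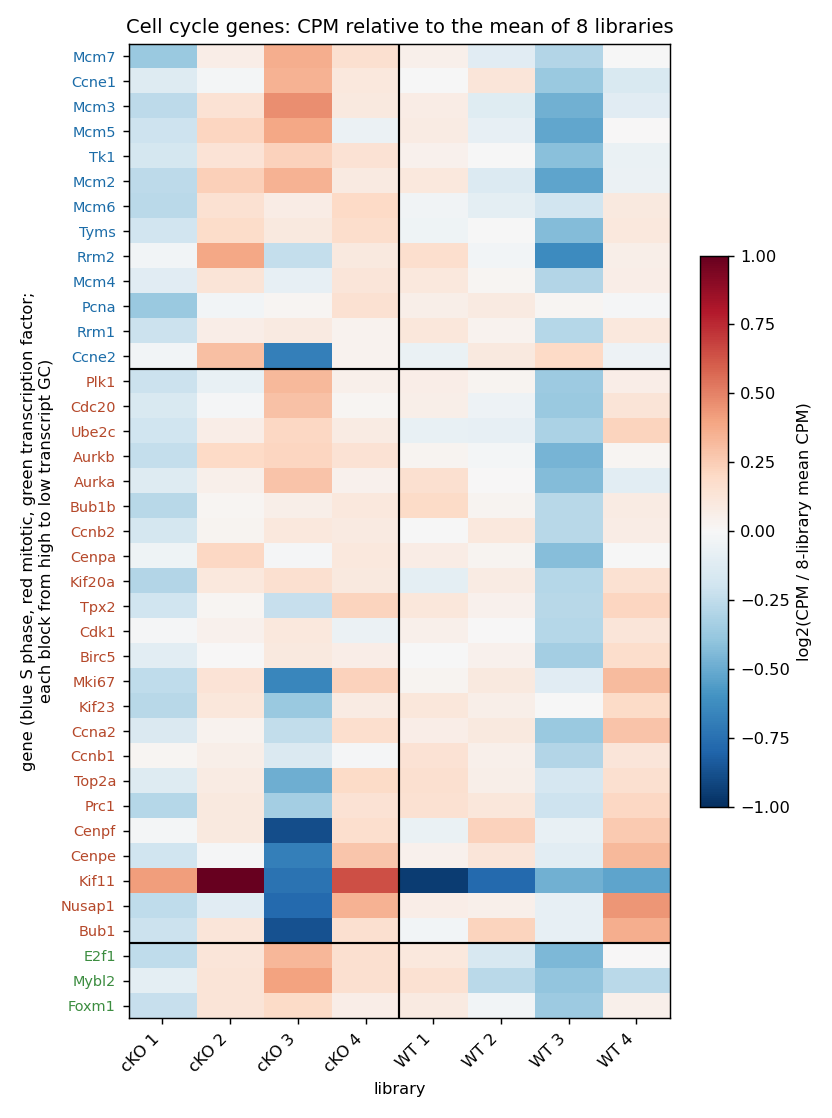
CPM of the 39 genes in each library relative to the gene's mean over the 8 libraries (log2 scale, red above and blue below the mean), cKO columns left and WT columns right, with genes in each block ordered from high to low transcript GC. Columns cKO 1 and WT 3 are blue for most genes, while cKO 3 passes from red to blue down the S phase and mitotic blocks.

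Markers of differentiated enterocytes ran the other way in the same 2 libraries. The median of 12 enterocyte markers, which include the brush border enzyme gene Alpi and the apolipoprotein gene Apoa4, was 115%, 82.6%, 99.8% and 87.1% of the 8-library mean in cKO libraries 1 to 4, against 69.2%, 84.1%, 185% and 76.6% in WT libraries 1 to 4. It was thus highest in WT library 3 and next highest in cKO library 1. Their summed level ran from 11581 to 17577 CPM in cKO and from 9982 to 25820 CPM in WT, 12 of 12 were detected and 0 were called. The median of 8 crypt stem cell markers was 79.1%, 124%, 102% and 106% in cKO, against 99.8%, 93.4%, 85.8% and 112% in WT, with the low values of each group in those libraries again. The part of the mixture of villus and crypt cells in the levels of the members was not tested.

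Markers of other cell types were also followed. Of 11 lists in all, the enteroendocrine list (7 genes) was the one whose summed level did not overlap between groups, with 528 to 652 CPM in cKO and 392 to 526 CPM in WT. The nearest values were 528 CPM in cKO library 3 and 526 CPM in WT library 4. Of the estimates 7 of 7 were above 0, against 50.5% of all genes, and 0 were called. Among the genes of this list Sst alone did not overlap between groups, which held for 3.21% of all genes. Summed goblet cell markers (7 genes) ran from 6337 to 8672 CPM in cKO and from 7356 to 9101 CPM in WT, Paneth cell markers (6 genes) from 17360 to 26926 CPM in cKO and from 18577 to 29417 CPM in WT, and tuft cell markers (5 genes) from 64.5 to 81.3 CPM in cKO and from 62.8 to 103 CPM in WT. Lymphocytes divide too. The summed level of 13 T cell and intraepithelial lymphocyte markers was 577, 253, 786 and 284 CPM in cKO, against 240, 198, 368 and 650 CPM in WT, with 13 of 13 markers detected, 12 estimates above 0 and 0 called. High values stood in cKO libraries 1 and 3 and in WT library 4. In these libraries the median of the S phase members was 86.8%, 107% and 99.8% of the 8-library mean. That of the mitotic members was 87.2%, 90.5% and 112%, and that of the transcription factors 85.1%, 126% and 100%. Summed B and plasma cell markers (6 genes) ran from 6.61 to 20.5 CPM in cKO and from 7.95 to 18.7 CPM in WT, and summed myeloid markers (7 genes) from 9.95 to 15.6 CPM in cKO and from 8.07 to 10.6 CPM in WT. Stromal and endothelial markers (10 genes) summed to 12.9 to 22.2 CPM in cKO and 10.9 to 16.8 CPM in WT, most of it Vim. The part of these cells in the members' levels was not tested.

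**Figure D4:**
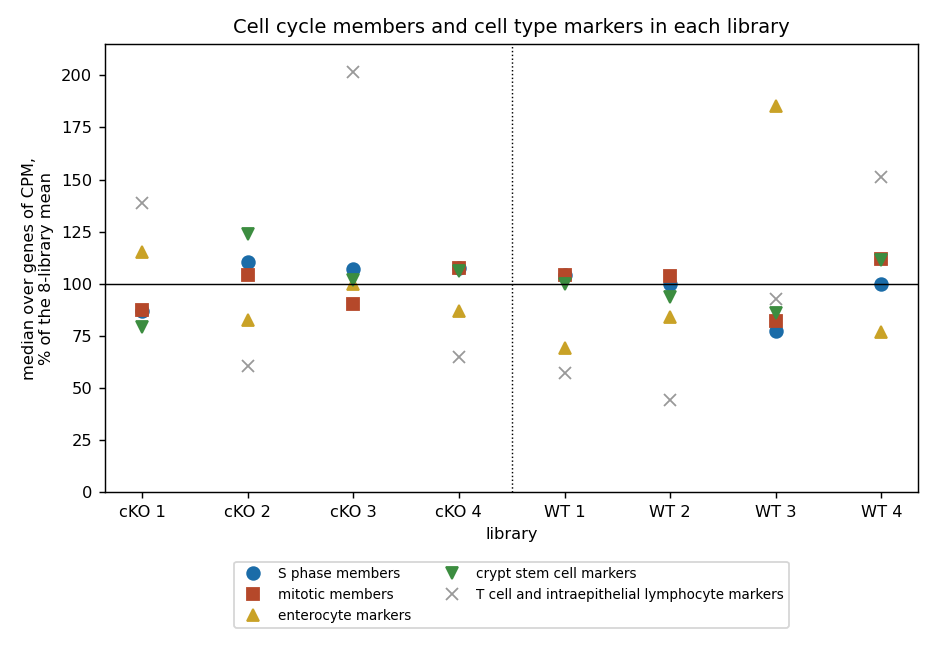
Median CPM of 5 gene groups in each library, as a percent of each gene's mean over the 8 libraries, cKO libraries left of the dotted line and WT libraries right. Enterocyte markers reach 115% in cKO library 1, where S phase members are at 86.8% and mitotic members at 87.2%, and 185% in WT library 3, where S phase members are at 77.4% and mitotic members at 82.2%.

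With WT library 3 and cKO library 1 both left out, 0 of 39 members and 0% of 14789 genes were called, and the medians were 0.15 for the S phase genes, -0.04 for the mitotic genes and 0.22 for the transcription factors. Without WT library 3 alone, 17 of 39 estimates were above 0, among them 5 of 23 mitotic genes in place of 11. Without cKO library 1 alone, 27 of 39 estimates were above 0, among them 12 of 13 S phase genes in place of 10. The medians were then 0.23 for the S phase genes, 0.05 for the mitotic genes and 0.32 for the transcription factors. In that fit 0 members and 1 of 14965 genes were called. With both libraries 3 left out, 0 members and 0.0271% of genes were called. Of the estimates of the members 12 of 39 were then above 0, in place of 24, against 49.8% of all genes, and the medians were 0.04 for the S phase genes, -0.08 for the mitotic genes and 0.03 for the transcription factors.

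Library 3 of cKO stood apart in another way, with some members far above and others far below the other cKO libraries. Relative to the mean of cKO libraries 1, 2 and 4, Mcm3 stood at 1.38, Mcm5 and Plk1 at 1.32 and Mcm7 at 1.31. Cenpf stood at 0.512, Bub1 at 0.533, Nusap1 at 0.576, Ccne2 at 0.577, Cenpe at 0.606, Mki67 at 0.614 and Top2a at 0.684. Kif11, which is described on its own further on, stood lowest of all members at 0.368, with a GC content of 42.2%. The members that were low had mostly transcripts of low GC content. Kif11 apart, 9 of the 11 members with a GC content under 46% stood below 1, with a median ratio of 0.684. Of the other 27 members, 6 stood below 1, with a median of 1.13. Pearson's r between the log2 ratio and GC was 0.82 over the 38 members without Kif11, 0.80 with Kif11 included, and 0.47 over 14457 genes with a GC value. Taken in the same way against the others of its group, r over the 38 members was -0.67, -0.67 and -0.59 in cKO libraries 1, 2 and 4, where library 3 is among the others, and 0.61, -0.15, -0.45 and -0.17 in WT libraries 1 to 4. Over all genes with a GC value it lay between -0.23 and 0.12 in these 7 libraries. These are descriptions over genes that share the same libraries and that are not independent replicates. Gene length went with it. Again without Kif11, the median ratio was 1.15 for 16 members under 4000 bases, 1.02 for 13 members of 4000 to 6000 bases and 0.782 for 9 longer members.

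**Figure D5:**
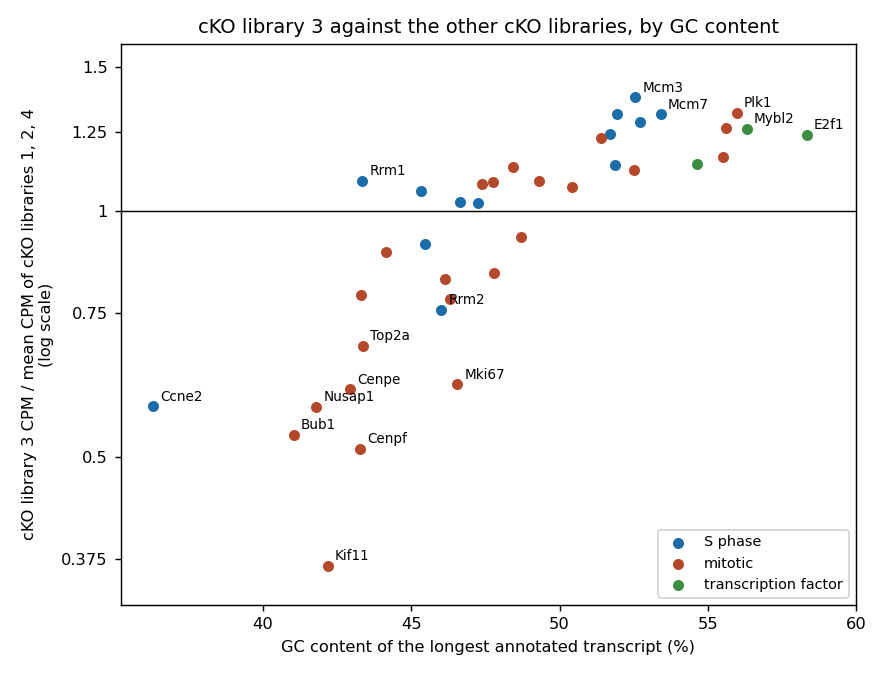
CPM in cKO library 3 divided by the mean of cKO libraries 1, 2 and 4 (log scale), against the GC content of the longest annotated transcript (%), for the 39 genes coloured by role. Ccne2, Bub1, Nusap1, Cenpe and Cenpf lie between 0.512 and 0.606 on the left of the plot, Kif11 lies below them at 0.368, and Mcm3, Mcm7 and Plk1 above 1.3 on the right.

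The pattern went across roles. Ratios were also taken within 4 pairs of related genes, in 2 of which a partner is among the low members above. The FPKM ratio of Ccne2 to Ccne1, a GC-poor and a GC-rich E-type cyclin, was 0.916, 1.06, 0.416 and 0.809 in cKO libraries 1 to 4, against 0.814, 0.839, 1.26 and 0.911 in WT libraries 1 to 4. The ratio of Bub1 to Bub1b, which encode related checkpoint kinases, was 0.432, 0.444, 0.217 and 0.431 in cKO, against 0.354, 0.476, 0.476 and 0.503 in WT. In both pairs cKO library 3 was the lowest of the 8 and the other 3 cKO libraries overlapped the WT range. The ratio of Ccnb1 to Ccnb2 was also lowest in cKO library 3, at 0.291, whereas it ran from 0.324 to 0.396 in cKO libraries 1, 2 and 4 and from 0.333 to 0.382 in WT. That of Aurkb to Aurka did not set library 3 apart, at 0.989 within a range of 0.964 to 1.15 in cKO, against 0.947 to 1.13 in WT. With a trend on gene length and GC content removed from each library, the median log2 fold change was 0.14 over the S phase genes (13 of 13 above 0), -0.01 over the mitotic genes (9 of 23 above 0) and 0.08 over the transcription factors, against 50.4% of all genes with an estimate above 0. In that fit 0 members and 0.0136% of genes were called.

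Kif11 (chromosome 19, 37376403 to 37421859, plus strand) was the member with the largest estimate. It had 11.7, 17.5, 5.28 and 13.7 CPM in cKO libraries 1 to 4, against 4.56, 5.14, 6.30 and 6.11 CPM in WT libraries 1 to 4. Libraries 1, 2 and 4 of cKO were above every WT library, and cKO library 3 lay within the WT range. Kif11 averaged 12.1 ± 5.13 CPM in cKO and 5.53 ± 0.823 CPM in WT (SD, n = 4 each), a log2 fold change of 1.13 ± 0.31, or 2.18-fold (95% interval 1.36 to 3.497), with an unadjusted p of 0.00386 and an edgeR adjusted p of 0.891. Over the alternatives the estimate ran from 0.65 to 1.44 and the adjusted p from 0.0476 (limma voom with sample quality weights) to 0.992. The voom fit gave cKO library 3 a weight of 0.192, against 0.607, 1.46 and 2.06 for cKO libraries 1, 2 and 4. It thus counted least the cKO library in which Kif11 lay within the WT range. Without cKO library 3 the Kif11 estimate was 1.38 with an edgeR adjusted p of 0.197. The estimates of the other kinesin genes among the members were 0.06 for Kif20a, -0.19 for Kif23 and -0.22 for Cenpe.

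The tables list the neighbourhood of Kif11 on more than 1 sequence. Its neighbour Ide (insulin-degrading enzyme, chromosome 19, 37268743 to 37337852, minus strand) is listed at 0 in all 8 libraries. A locus with no Ensembl identifier and with insulinase domains is listed on an alternative scaffold, a genome patch of the same region, at 37268396 to 37363014 on the minus strand. That locus had 711, 1039, 122 and 334 counts in cKO libraries 1 to 4, against 447, 719, 445 and 187 counts in WT libraries 1 to 4. It was lowest in cKO library 3, as Kif11 was among the cKO libraries, but in WT its order was not that of Kif11, which was highest in WT library 3. The tables hold 89 loci on 36 such scaffolds. How reads that match both a chromosome and a patch were counted is not given in the sources used here, and its part in the level of Kif11 was not tested.

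Counting on either strand can also add reads of a neighbour, and the treatment of strand is not given in the sources used here. An exon overlap of at least 10% with a gene on the opposite strand was found for 5 members. It covered 29.3% of the exon bases of Kif20a (with Cdc23), 22.8% of those of Ube2c (with Tnnc2), 17.4% of those of Ccne2 (with Ints8), 12.5% of those of Ccna2 (with Exosc9) and 11.1% of those of Prc1 (with Rccd1). For them the levels may include reads of the partner.

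Other genes of the cycle gave no call either. Of 154 genes in 9 lists of cell cycle functions, 152 were tested, 85 had an estimate above 0 and 67 below, and 0 passed the threshold in either direction. The median log2 fold change was 0.07 over 20 genes of origin licensing and firing, 0.12 over 28 genes of the replication fork and nucleotide supply, 0.17 over 6 genes of G1 cyclins and their kinases, 0.07 over 9 other E2F and DP factors and 0.09 over 10 regulators of Cdk1 and of the anaphase-promoting complex. It was -0.02 over 13 CDK inhibitors and pocket proteins, -0.06 over 27 genes of the kinetochore and checkpoint, 0.0058 over 23 genes of the spindle and cytokinesis and -0.14 over 16 genes of condensin and cohesin, against 0.0022 over all genes. Some genes of the lists stood apart in cKO library 3, in both directions. Smc4 of condensin had 75.5 CPM there, against 144, 152 and 158 CPM in cKO libraries 1, 2 and 4. Ncapd2 of condensin had 213 CPM there, against 138, 178 and 185 CPM. Medians of the lists without library 3 are not given here.

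The gene with the smallest p of each list is named with its log2 fold change. They were Cdt1, which loads the helicase at origins (0.30 ± 0.18), Rpa1, which coats single-stranded DNA (0.26 ± 0.13), the D-type cyclin Ccnd2 (0.26 ± 0.16), Tfdp2, a partner of E2F factors (-0.22 ± 0.14), and Cdc25b, a phosphatase that activates Cdk1 (0.23 ± 0.12). Cenpt of the inner kinetochore was at 0.31 ± 0.16 and Stag2 of cohesin at -0.37 ± 0.21. Each of these 7 genes had an edgeR adjusted p of 0.921 and overlapping groups. In cKO library 3 Stag2 was at 93.0 CPM, against 181, 189 and 208 CPM in cKO libraries 1, 2 and 4. Cdt1 was at 92.6 CPM there, against 49.4, 69.5 and 68.0 CPM. Library 3 was also the highest of cKO for Rpa1 and the lowest for Tfdp2. For Ccnd2, Cdc25b and Cenpt it lay within the range of the other cKO libraries.

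An unadjusted p under 0.05 was found for 2 of the 152, Rb1 and Nek2, against 3.9% of all genes. Rb1, the retinoblastoma protein that restrains E2F factors, had 67.1, 55.0 and 64.5 CPM in cKO libraries 1, 3 and 4, against 87.8, 91.9, 82.2 and 112 CPM in WT libraries 1 to 4. These 3 cKO libraries were below every WT library and cKO library 2 lay within the WT range, giving a log2 difference of -0.41 ± 0.17 (adjusted p = 0.921 in edgeR). Nek2, a centrosomal kinase, had 2.01, 8.92, 1.69 and 2.05 CPM in cKO, against 1.17, 1.38, 2.10 and 1.65 CPM in WT. Its log2 fold change of 1.22 ± 0.54 (adjusted p = 0.921 in edgeR) was carried by cKO library 2, the other 3 cKO libraries lying within the WT range.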

How the data were processed

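RNA was sequenced in 4 cKO and 4 WT libraries. The authors deposited raw whole-number read counts for 54139 genes. They also deposited FPKM values of these genes, which divide by gene length and by the library's total. Per the series' design text, reads were aligned with Hisat2 and passed to Stringtie after sequencing on an Illumina NovaSeq. Neither tool versions nor the counting program, strand setting and build were found in the sources used here. Of the deposited identifiers 53620 are in GENCODE M21 of build GRCm38, and 97.1% of these have identical coordinates there.

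The test of the counts was edgeR's quasi-likelihood F-test (version 4.0.16 in R 4.3.3, robust fit, TMM factors, default filter on low counts, genotype as the single term), with Benjamini-Hochberg adjustment over 14701 genes at a threshold of 0.05. The SE is the log2 fold change divided by the square root of F, with a median of 0.17 over genes. The members and all lists were chosen with earlier results of these data known, so no test was made over a list. The rule for naming gives every library's value for called members, for up to 5 S phase genes, 5 mitotic genes and 2 transcription factors with the smallest p, and for the highest and lowest estimate of each role, and names the called genes and the gene with the smallest p of each pathway list. The edgeR step was tested on simulated counts for the same 14701 genes. Alternatives were RLE and upper-quartile factors, no filter, CPM 1 in 4 libraries, leaving out each library or both libraries 3, the replicate number as a block, removal of a length and GC trend (GC known for 98.3% of genes), DESeq2 1.42.0, limma 3.58.1 voom with sample quality weights, and limma on log2(FPKM + 0.1) and log2(FPKM + 1) for genes averaging at least 0.5 FPKM, and on log2(FPKM + 0.1) unfiltered. A fit lacking both WT library 3 and cKO library 1 was added after seeing the data. No 2 libraries agreed within sampling noise (lowest chi-square per degree of freedom 10.7). The number of libraries limits precision, with a biological coefficient of variation of 22.0%. One pathway gene, Sgo2a, was not found by symbol and is not analysed here.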

Additional observations from a re-analysis of the deposited data

Results flagged for a closer look

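For 39 members and Rictor in 2 groups, 80 groups of 4 libraries were examined for 1 library far from the other 3, and 4 such groups were found. For independent groups chance gives about 1 in 20, which is as many as were found. The groups share the same libraries and most members varied together, so that share is only a rough guide. The far library was cKO library 1 or WT library 3 in all 4 groups. Aurkb, the kinase of the chromosomal passenger complex, stood low in 1 cKO library, library 1, with 53.96 CPM, while the other cKO libraries had 70.5 to 73.9 CPM. Aurkb was also low in WT library 3, at 46.2 CPM against 62.8 to 64.8 CPM in the other WT libraries. Plk1, a mitotic kinase, was low in WT library 3, at 70.6 CPM against 92.5 to 95.2 CPM. Kif20a, a kinesin of cytokinesis, had 36.1 CPM in cKO library 1, while the other cKO libraries had 47.2 to 49.4 CPM. Within its group, cKO library 1 was the lowest library for 24 of 39 members and WT library 3 for 36 of 39.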

How the results depend on the processing

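No member was called under any alternative except Kif11 with limma voom and quality weights (1 member). The count of all genes called (2) was 10 without a filter, 4 without both libraries 3, 0 without WT library 3 and cKO library 1, 37 with DESeq2, 8 with voom, 0 on log2(FPKM + 1) and 0 to 3 when 1 library was left out. The labels state no pairing, and the replicate numbers were not taken as one because not every correlation of deviations between libraries of the same number exceeded 0.1 (-0.11, 0.11, 0.15 and 0.14). Libraries numbered 3 and 4 matched their own number best, and those numbered 1 and 2 did not. With the replicate block 0 genes and 0 members were called, the SE of Nusap1 was 0.13 in place of 0.21 (edgeR adjusted p = 0.891), and Rrm1 stood at 0.0034. Leaving out 1 library, the median log2 fold change ranged from 0.060 to 0.23 (S phase), from -0.12 to 0.046 (mitotic) and from 0.12 to 0.32 (transcription factors). The cause of the following reversed signs was not tested. Without both libraries 3 the log2 fold change was -0.033 for Aurka, -0.084 for Birc5, -0.076 for Ccnb2, -0.0026 for Ccne1, 0.12 for Ccne2, -0.10 for Cdc20, -0.068 for Cdk1, -0.043 for Foxm1, -0.067 for Kif20a, -0.016 for Mcm4, -0.011 for Mcm5, -0.0088 for Mcm7, -0.13 for Plk1 and -0.038 for Ube2c. Without WT library 3 and cKO library 1 it was -0.017 for Birc5, -0.025 for Cdk1, -0.0075 for Mcm4 and 0.0028 for Pcna. With voom it was -0.0023 for Birc5, -0.0042 for Ccnb2, 0.067 for Ccne2, -0.0067 for Cdc20, -0.031 for Cdk1 and -0.038 for Plk1. With the length and GC trend removed it was 0.061 for Ccnb1, 0.057 for Ccne2, -0.0064 for Cdc20, 0.0076 for Pcna, -0.031 for Plk1, 0.16 for Rrm1 and -0.00065 for Ube2c. Rrm1 stood at 0.012 with upper-quartile factors, 0.0025 on log2(FPKM + 0.1) with or without the filter and 0.0021 on log2(FPKM + 1). Leaving out 1 library, the sign changed for 13 members, with ranges of -0.056 to 0.11 for Birc5, -0.12 to 0.046 for Bub1b, -0.19 to 0.016 for Ccna2, -0.12 to 0.021 for Ccnb1, -0.045 to 0.091 for Ccnb2, -0.23 to 0.062 for Ccne2, -0.0057 to 0.15 for Cdc20, -0.037 to 0.093 for Cdk1, -0.019 to 0.15 for Kif20a, -0.048 to 0.084 for Mcm4, -0.15 to 0.0094 for Pcna, -0.036 to 0.15 for Plk1 and -0.085 to 0.065 for Rrm1. In counts simulated for this comparison over 14701 genes, 13.4% of 1.5-fold, 59.7% of 2-fold and 89.4% of 4-fold changes were called.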
